A study of Mus musculus with 5 samples.

Results

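T and NK lymphocyte genes were followed in RNA of sorted cardiac macrophages, a population whose sort did not select for lymphocytes. The set holds 30 genes, all found by symbol among the 21289 genes of the count table, in 3 groups by role: 12 of T cell receptor signalling, 7 of T cell state and 11 of cytotoxic and natural killer (NK) cells. Hearts of male wild-type mice of the C57BL/6JGpt strain were taken on day 7 after a myocardial infarction, and CD45+CD64+ cells were isolated by flow cytometry. Mice of the curcumol group (3 samples) had been gavaged once a day with curcumol, a plant sesquiterpene, at 30 mg/kg; mice of the untreated group (2 samples) had the infarct without it. The labels give neither the age of the mice nor whether a sample was 1 animal or a pool, and nothing states that replicates are separate mice; p-values therefore reflect the variation among these 5 samples, which may be technical.

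T cells recognise antigen through a receptor whose CD3 and zeta chains pass the signal to the kinases LCK and ZAP70. NK cells and cytotoxic T cells kill with perforin and granzymes and secrete interferon gamma. Both enter the heart after an infarct. CD45 is on all leukocytes, T and NK cells included, whereas CD64, a high-affinity immunoglobulin receptor, is used to separate macrophages and monocytes from lymphocytes. Several members are not exclusive to T and NK cells: innate lymphoid cells also use Il7r, Gata3, Tcf7 and Klrk1, and B-1 cells carry Cd5. In bulk RNA, fewer cells of a type and less RNA per cell cannot be told apart.

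Total counts were 39768705 to 43315822 per library. The curcumol libraries held 17078 to 18501 genes with a count, against 12243 and 12915 in the untreated libraries. Levels are counts scaled to the library total (CPM), and fold changes are log2, curcumol over untreated, ± SE, from an edgeR quasi-likelihood fit to 14508 genes. The defining markers of the sorted macrophages were present in every library, among them Fcgr1, which encodes CD64, with 335, 321 and 267 CPM in curcumol libraries and 318 and 350 CPM in untreated libraries. The 10 monocyte and macrophage markers summed to 32762 to 36855 CPM with curcumol, against 35388 and 36472 CPM in untreated samples, most of it Lyz2. None of the 10 passed the threshold, which 0.207% of all tested genes passed. The libraries of 7 did not overlap, as for 45.9% of all tested genes. Ptprc (which encodes CD45), Csf1r, Mertk, Itgam and C1qa lay higher with curcumol, as did 36.6% of all tested genes. Cd68 and Cd14 lay lower, as did 9.31%. Ptprc averaged 419 ± 89.8 CPM with curcumol and 268 ± 34.2 CPM without, and Cd14 1618 ± 359 CPM with curcumol and 3446 ± 35.3 CPM without (SD, n = 3 and 2). The 30 lymphocyte genes together reached 143.9, 297.2 and 213.1 CPM in the 3 curcumol libraries, against 138.1 and 138.5 CPM in the untreated libraries.

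No lymphocyte gene rose or fell at the 0.05 threshold on the adjusted p from edgeR, by which 0.207% of all tested genes were called, 0.0689% higher and 0.138% lower with curcumol. Of the 30 members 29 had enough counts to be tested, all but Eomes. At an unadjusted p under 0.05, 6 of the 29 (20.7%) were higher with curcumol, where 18.1% of all tested genes were, and 0 were lower, where 6.51% of all tested genes were. DESeq2 called 5 members higher (Gata3, Gzmb, Ifng, Prf1 and Tbx21) among the 16.5% of genes it called, and limma-voom called 4 (the same without Ifng) among its 11.4%. The fitted change was positive for 24 of 29 members (82.8%), against 57.1% of all tested genes, and its median was 1.04, against 0.15 over all tested genes. Libraries of the groups did not overlap, with curcumol higher, for 10 of 29 tested members (34.5%), where 36.6% of all tested genes showed this, and for the untested Eomes. None lay wholly below the untreated libraries, where 9.31% of all tested genes did; in either direction the share of all tested genes was 45.9%. Of the 29, 5 were without a count in both untreated libraries, and Tbx21 had 0 and 1. All of these passed the filter on low counts through the curcumol libraries alone. In all, 11 members, Tbx21 among them, lacked counts in 1 untreated library. The shares above therefore describe the tested members and support nothing by themselves.

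**Figure D1:**
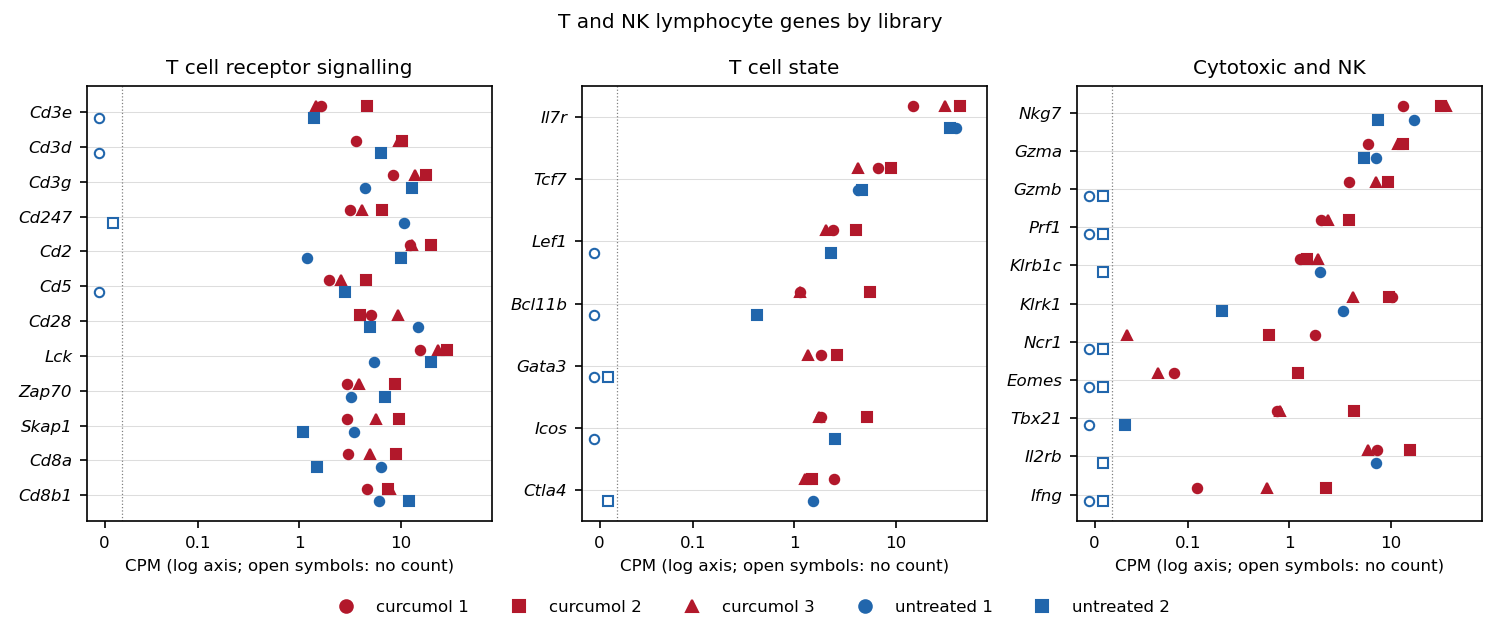
CPM of each member (log axis) in curcumol libraries (red, upper points of each row) and untreated libraries (blue, lower points). Open symbols left of the dotted line mark libraries without a count. The 3 curcumol libraries have counts for all 30 genes, whereas 17 genes lack them in 1 or both untreated libraries.

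Among the receptor genes, the chains of the CD3 complex were found in all 3 curcumol libraries, and their untreated libraries did not resemble each other. Cd3g, the gamma chain, stood at 8.38, 17.7 and 13.9 CPM with curcumol, against 4.502 and 13.0 CPM without it. These ranges overlapped, and the change was 0.42 ± 0.57 (adjusted p = 0.727, edgeR). Cd3d, the delta chain, stood at 3.68, 10.4 and 9.71 CPM in curcumol libraries and at 0 and 6.41 CPM in untreated libraries. Cd3e, the epsilon chain, had 1.66, 4.62 and 1.46 CPM with curcumol, against 0 and 1.39 CPM. Its libraries narrowly did not overlap, and its change was 1.71 ± 1.81 (adjusted p = 0.637, edgeR). The first untreated library lacked Cd3d and Cd3e beside 195 counts of Cd3g, and the second held all 3. Cd247, the zeta chain that NK cells also use, went the other way between the untreated libraries: it had 3.17, 6.59 and 4.199 CPM with curcumol, against 10.8 and 0 CPM. In counts, Cd247 had 467 in untreated library 1, with an exact 95% Poisson interval of 426 to 511, and 0 in untreated library 2, where 0 allows up to 3. The 4 chains thus had no common order of the untreated libraries.

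Within a library the chains can be set against each other. Cd3d counts were 0.439, 0.587 and 0.701 times those of Cd3g in curcumol libraries, against 0 and 0.494 in untreated libraries. Cd247 counts were 0.378, 0.372 and 0.303 times those of Cd3g with curcumol, against 2.39 and 0 without. The Cd247 to Cd3g ratio averaged 0.351 ± 0.0417 over the curcumol libraries (SD, n = 3), and both untreated values lay outside their range. These pairs were chosen after the values were seen and have no test. Cd3g, Cd3d and Cd3e are next to each other among coding genes of chromosome 9 in RefSeq (GRCm38.p6), and the untreated library without Cd3d and Cd3e did have counts of Cd3g.

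The RefSeq promoters of this neighbouring pair are shown because Cd3g was counted in every library and Cd3d was not. Each holds 250 bases before and 50 from the gene's start, 5′ to 3′ on the gene's strand, in GRCm38.p6. Capitals mark matches on either strand to any of 6 short motifs. They are TATAAA for a TATA box, then TGTGGT for RUNX factors, then GGTGTGA for T-box factors, then AGATAA for the GATA family, then AGGAAG for ETS factors and last TGANTCA for AP-1, and no 2 matches shown overlap.
Cd3d, chr9:44981536-44981835, plus strand: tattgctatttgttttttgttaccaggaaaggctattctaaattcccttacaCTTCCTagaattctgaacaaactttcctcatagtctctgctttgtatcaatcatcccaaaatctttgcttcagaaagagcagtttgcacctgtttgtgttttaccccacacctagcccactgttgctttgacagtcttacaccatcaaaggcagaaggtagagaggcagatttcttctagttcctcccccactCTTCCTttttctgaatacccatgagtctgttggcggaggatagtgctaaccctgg
Cd3g, chr9:44980382-44980681, minus strand: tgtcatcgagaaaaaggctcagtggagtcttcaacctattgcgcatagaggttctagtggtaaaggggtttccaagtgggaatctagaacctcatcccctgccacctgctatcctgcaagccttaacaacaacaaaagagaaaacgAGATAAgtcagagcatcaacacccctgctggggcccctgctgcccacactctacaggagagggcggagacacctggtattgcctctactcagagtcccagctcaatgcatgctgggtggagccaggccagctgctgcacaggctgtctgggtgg
The Cd3d window held 2 ETS matches and the Cd3g window 1 match for the GATA family. The ETS letters were found in 35.4% of all 32851 promoters, those of the GATA family in 11.2% and TATAAA in 13.6%. A match is a description of the letters and not a site.

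For the signalling kinases and adaptors the libraries of the treatments overlapped. Lck, the kinase that starts receptor signalling, stood at 15.7, 28.99 and 23.4 CPM with curcumol, against 5.43 and 20.1 CPM in untreated libraries (0.65 ± 0.57, adjusted p = 0.566, edgeR). Zap70, the kinase recruited next, averaged 5.20 ± 3.14 CPM with curcumol and 5.13 ± 2.69 CPM without (SD, n = 3 and 2), and its change of -0.17 had a 95% interval of -1.93 to 1.59. Skap1, an adaptor that links the receptor to integrin adhesion, had 2.97, 9.70 and 5.76 CPM with curcumol, against 3.51 and 1.08 CPM. Untreated library 2 was above library 1 for Lck and Zap70 and below it for Skap1.

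Surface partners of the receptor differed in the same unequal way. Cd2, an adhesion receptor of T and NK cells, stood at 12.5, 19.9 and 12.9 CPM in curcumol libraries, against 1.2 and 10.03 CPM in untreated libraries. Its libraries did not overlap, and its change of 1.25 ± 0.85 did not pass (adjusted p = 0.433, edgeR). Cd5, an inhibitory receptor, had 1.95, 4.60 and 2.62 CPM with curcumol, against 0 and 2.86 CPM. Cd28, the costimulatory receptor, had 5.14, 3.99 and 9.48 CPM with curcumol, against 15.0 and 4.99 CPM, and its negative change of -0.89 ± 0.67 did not pass (adjusted p = 0.485, edgeR). For Cd28 the first untreated library was the highest of all 5, and for Cd2 the lowest.

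The coreceptor of cytotoxic T cells is a pair of CD8 chains, whose genes are neighbours on chromosome 6. Cd8a stood at 3.04, 9.07 and 5.03 CPM with curcumol, against 6.37 and 1.51 CPM in untreated libraries. Cd8b1 stood at 4.67, 7.49 and 7.80 CPM with curcumol, against 6.12 and 12.1 CPM. Untreated library 2 was thus the lowest of the 5 for Cd8a and the highest for Cd8b1. Cd8a counts were 0.651, 1.21 and 0.645 times those of Cd8b1 in curcumol libraries, against 1.04 and 0.125 in untreated libraries. Neither gene passed (adjusted p = 0.872 and 0.527, edgeR). Over the 12 receptor genes the summed level was 65.8, 131.8 and 100.1 CPM with curcumol, against 56.1 and 80.6 CPM without, and the groups overlapped.

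**Figure D2:**
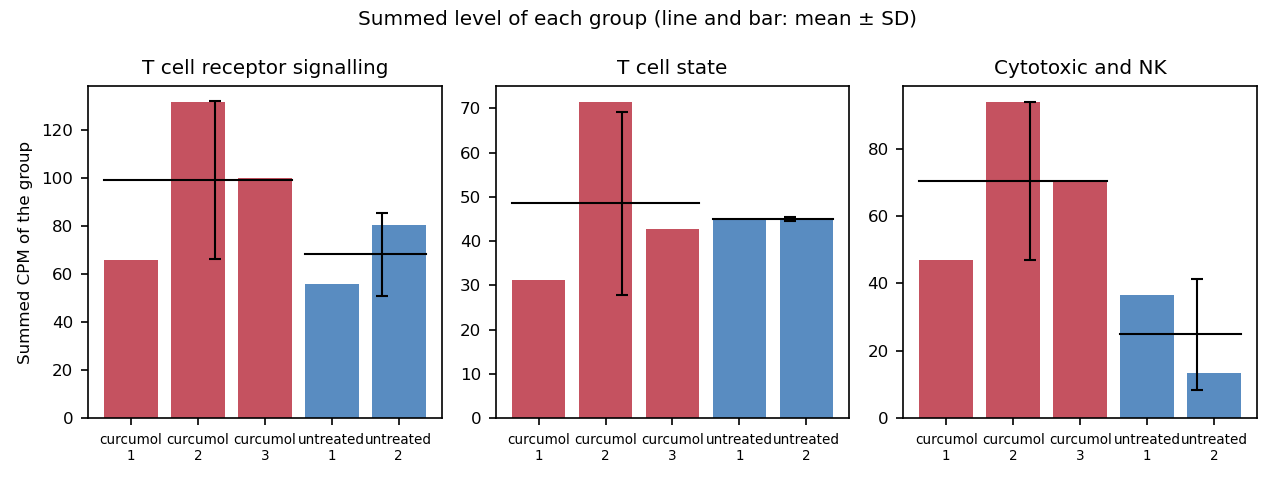
Summed CPM of the members of each group in each library (bars from 0), curcumol in red and untreated in blue; lines and error bars give the mean ± SD of each treatment (n = 3 and 2). Curcumol library 2 is the highest in all 3 groups, and the treatments do not overlap in the cytotoxic group.

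In the T cell state group the summed levels overlapped as well, at 31.3, 71.5 and 42.8 CPM with curcumol, against 45.3 and 44.7 CPM in untreated libraries. One gene held the largest share of this sum in every library. Il7r, the interleukin-7 receptor of naive and memory T cells, stood at 14.8, 43.6 and 30.9 CPM with curcumol, against 39.6 and 34.8 CPM, and its change was -0.52 ± 0.42 (adjusted p = 0.521, edgeR). Without Il7r the log2 ratio of the summed means was 1.26, against 0.11 with it. Tcf7, a transcription factor of naive and memory T cells, had 6.77, 8.95 and 4.30 CPM with curcumol, against 4.22 and 4.66 CPM, just overlapping. Il7r and Tcf7 were the only members of this group with counts in both untreated libraries.

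The other state genes were low, and each lacked counts in at least 1 untreated library. Lef1, the partner factor of Tcf7, had 2.43, 4.06 and 2.06 CPM with curcumol, against 0 and 2.30 CPM. Icos, a costimulatory receptor of activated T cells, had 1.85, 5.23 and 1.76 CPM with curcumol, against 0 and 2.54 CPM. Both were absent from untreated library 1 and overlapped through untreated library 2. Ctla4, the inhibitory counterpart of CD28, had 2.48, 1.51 and 1.28 CPM with curcumol, against 1.52 and 0 CPM. Its gene lies between Cd28 and Icos on chromosome 1, with no coding gene in between, and the 3 neighbours did not share an order of the untreated libraries: Cd28 and Ctla4 were higher in the first and Icos in the second.

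Bcl11b and Gata3, transcription factors of T lineage commitment, did not overlap between treatments. Bcl11b stood at 1.14, 5.55 and 1.13 CPM with curcumol, against 0 and 0.432 CPM (3.40 ± 1.87, adjusted p = 0.328, edgeR). Gata3, also the factor of helper type 2 and innate lymphoid cells, stood at 1.83, 2.63 and 1.36 CPM with curcumol and was without a count in untreated libraries. Against a floor of 3 counts per untreated library, which corresponds to 0.0693 and 0.0720 CPM, its mean was at least 27.4-fold higher with curcumol. This bound covers counting error only, and in the fit Gata3 did not pass (adjusted p = 0.0651, edgeR).

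Cytotoxic and NK genes were the group in which untreated libraries held the least. Their summed level was 46.9, 93.9 and 70.2 CPM with curcumol, against 36.6 and 13.3 CPM in untreated libraries, a ratio of means of 2.82 with no overlap. Of the 11 genes 5 lacked counts in both untreated libraries and 3 lacked them in 1. All 10 tested genes had a positive fitted change, with a median of 4.42, or 2.75 with genes absent from both untreated libraries set to their lower bounds. Of all tested genes 57.1% had a positive change, and their median was 0.15. Gzmb, Prf1, Ncr1, Ifng and Tbx21 had at most 1 count over both untreated libraries. These genes passed the filter on low counts through the curcumol libraries alone and could only be positive, so the share and medians support nothing by themselves.

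Granzymes and perforin, the killing proteins, were partly absent without curcumol. Gzma, granzyme A, was counted in all libraries, at 5.94, 13.4 and 11.9 CPM with curcumol, against 7.16 and 5.52 CPM without (0.51 ± 0.52, adjusted p = 0.621, edgeR). Gzmb, granzyme B, stood at 3.92, 9.44 and 7.24 CPM with curcumol and was not counted in either of the untreated libraries. Prf1, perforin, stood at 2.05, 3.92 and 2.39 CPM with curcumol and likewise had no untreated count. Gzma thus overlapped between the treatments, and Gzmb and Prf1 did not. The bounds were at least 97.2-fold higher for Gzmb and at least 39.4-fold higher for Prf1 against the floor of 3 counts per library, and neither gene passed in the fit (adjusted p = 0.0597 and 0.0644, edgeR).

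Gzmb counts kept close to a fixed share of Gzma counts in the curcumol libraries, 0.660, 0.707 and 0.609, or 0.658 ± 0.0489 (SD, n = 3). In the untreated libraries the share was 0, beside 310 and 230 counts of Gzma. For Prf1 the shares of Gzma were 0.344, 0.293 and 0.201 with curcumol, and 0 in both untreated libraries. These ratios were computed after the values were seen.

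The promoters of the 3 genes are printed because Gzma was present and Gzmb and Prf1 absent in the same untreated libraries; source, window and capitals are as for the CD3 genes.
Gzmb, chr14:56262285-56262584, minus strand: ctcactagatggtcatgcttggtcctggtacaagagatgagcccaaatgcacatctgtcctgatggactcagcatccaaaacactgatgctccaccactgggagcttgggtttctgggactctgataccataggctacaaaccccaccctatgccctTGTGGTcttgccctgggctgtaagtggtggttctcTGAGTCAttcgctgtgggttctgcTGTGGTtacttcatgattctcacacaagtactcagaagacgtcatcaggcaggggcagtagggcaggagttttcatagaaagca
Prf1, chr10:61297586-61297885, plus strand: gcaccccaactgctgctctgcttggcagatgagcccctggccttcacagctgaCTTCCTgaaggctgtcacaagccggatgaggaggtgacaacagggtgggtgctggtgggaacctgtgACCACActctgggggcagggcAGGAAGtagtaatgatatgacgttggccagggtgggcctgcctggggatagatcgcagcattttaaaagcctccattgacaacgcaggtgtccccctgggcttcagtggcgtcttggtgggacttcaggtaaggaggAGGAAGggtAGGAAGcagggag
Gzma, chr13:113100932-113101231, minus strand: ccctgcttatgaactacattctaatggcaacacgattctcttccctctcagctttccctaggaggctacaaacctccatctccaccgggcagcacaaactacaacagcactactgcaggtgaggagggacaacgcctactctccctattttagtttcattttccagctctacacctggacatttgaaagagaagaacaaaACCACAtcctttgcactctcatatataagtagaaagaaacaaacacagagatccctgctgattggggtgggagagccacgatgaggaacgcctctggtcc
A RUNX match (TGTGGT) occurred in all 3 windows, 2 times in Gzmb, and the Gzmb window also held 1 AP-1 match. The Prf1 window also held ETS matches (AGGAAG), starting at -197, -109, 29 and 38 from the gene's start. ETS letters were held by 14 of the 24 members that have a RefSeq promoter, against 35.4% of all promoters. TGTGGT was held by 10 of the 24 members that have a RefSeq promoter, against 16.8% of all promoters. They were Gzma, Gzmb, Il7r, Klrb1c, Klrk1, Lck, Ncr1, Nkg7, Prf1 and Zap70. The letters GGTGTGA were found in Nkg7 alone among the members, against 3.98% of all promoters, and those of AP-1 in Gzmb and Klrk1, against 7.81%. The RUNX letters occurred in Gzma, counted in both untreated libraries, and in Gzmb and Prf1, counted in neither. A link between these letters and the untreated counts was not tested.

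Nkg7, a granule membrane protein of cytotoxic cells, had the highest mean per length of the members in both groups. It averaged 30.3 CPM per kb of transcript with curcumol and 13.9 CPM per kb without. Its levels of 13.3, 31.9 and 35.1 CPM with curcumol overlapped with 16.9 and 7.54 CPM in untreated libraries (0.92 ± 0.54, adjusted p = 0.359, edgeR). On the same CPM per kb scale Cd2 (13.1), Cd3g (13.0), Gzma (10.4) and Lck (10.4) came next in the curcumol libraries, and these means differed by less than their SDs. In the untreated libraries the order of means after Nkg7 was Il7r (10.5), Cd3g (8.54), Gzma (6.36) and Cd8b1 (6.16). The untreated libraries did not share this order, and Nkg7 had 19.2 and 8.55 CPM per kb in library 1 and 2. In library 2 Cd3g (12.7), Il7r (9.82), Lck (9.22) and Cd2 (8.70) lay above Nkg7.

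The NK receptors differed in which libraries were high. Klrk1, the activating receptor NKG2D, stood at 10.3, 9.61 and 4.27 CPM with curcumol, against 3.37 and 0.216 CPM, without overlap (1.97 ± 1.18, adjusted p = 0.369, edgeR). Klrb1c, NK1.1, had 1.29, 1.48 and 1.91 CPM with curcumol, against 2.01 and 0 CPM. Ncr1, NKp46, had 74, 26 and 1 counts with curcumol and none without. Klrk1 and Ncr1 were highest in curcumol library 1, unlike most members. Il2rb, the interleukin-2 and interleukin-15 receptor chain, had 7.35, 15.7 and 5.98 CPM with curcumol, against 7.23 and 0 CPM in untreated libraries.

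Factors of the effector program and their cytokine were counted mostly in 1 curcumol library. Tbx21 encodes T-bet and had 31, 179 and 32 counts with curcumol, against 0 and 1. The ratio of its summed counts per total was 169, with an exact 95% counting interval of 30.0 to 6687, and the fit gave an adjusted p of 0.0801 (edgeR). Eomes, the related T-box factor of NK cells, had 3, 50 and 2 counts with curcumol and none without. Ifng, interferon gamma, had 5, 94 and 24 counts with curcumol and none without (adjusted p = 0.1, edgeR). All 3 genes were highest in curcumol library 2, and for Eomes the other two curcumol libraries were at or under 3 counts.

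Which members were called depended on the untreated library kept. Without untreated replicate 1, 10 of 30 tested members were higher at an adjusted p under 0.05 (18.7% of all genes were called); without untreated replicate 2, 12 were higher and 2, Cd247 and Cd28, lower (22.5%). Gata3, Gzmb and Prf1 had no untreated count, and Tbx21 had 0 and 1. Their change was therefore bound to be positive in both fits, and this agreement supports nothing. Cd247, Ctla4, Il2rb and Klrb1c had no count in untreated library 2, which alone was kept in the first fit. Bcl11b, Cd3d, Cd3e, Cd5, Icos and Lef1 had none in untreated library 1, which alone was kept in the second. Their calls as higher in those fits were fixed in the same way and support nothing either. The change of Cd247 was 10.53 without untreated replicate 1 and -1.41 without untreated replicate 2. Without curcumol replicate 1, 2 or 3 none was called, where 0.00715%, 0% and 0.138% of all genes were. Without a filter on low counts Gzmb and Prf1 were called (2.03% of all genes), and with a filter of CPM of at least 1 in 2 samples Gzmb alone (0.802%). With total counts (0.0689%) or a replicate block (0.31%) none was called.

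**Figure D3:**
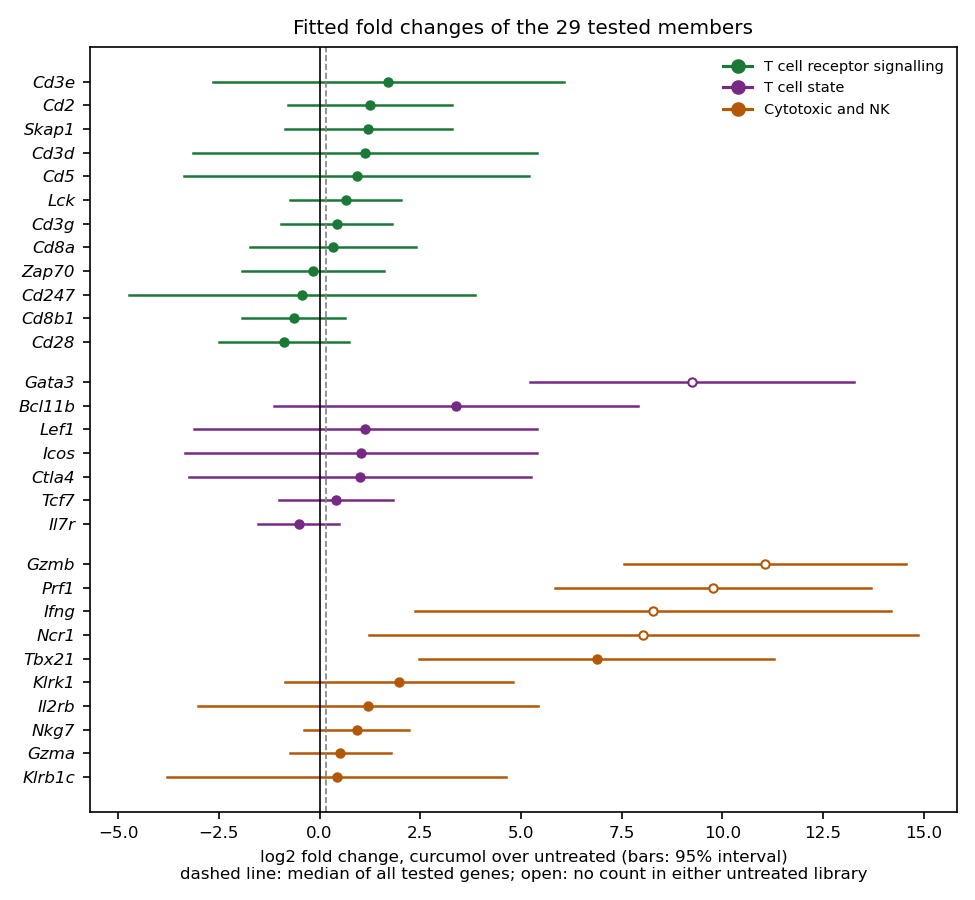
Log2 fold change of the 29 tested members, curcumol over untreated, with 95% intervals from the edgeR fit, by group. The intervals of all receptor genes cross 0, and open symbols mark the 5 genes without an untreated count, whose fitted size depends on the prior count of the fit.

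Curcumol library 2 was the highest of the 3 curcumol libraries for 23 of 30 members (76.7%), against 43% of the 7185 genes at 1 to 30 CPM with curcumol. Its median ratio to curcumol library 1 was 2.18 over the members, against 1.13 over those genes. This held in each group, for 10 of 12 receptor, 6 of 7 state and 7 of 11 cytotoxic genes. The summed cytotoxic level was 0.712, 0.712 and 0.702 times the receptor level in the 3 curcumol libraries, against 0.653 and 0.165 in the untreated libraries. Curcumol libraries thus differed in how much of both groups they held more than in the proportion, and untreated library 2 was lower than library 1 in cytotoxic genes and higher in receptor genes. The ratio was chosen after the values were seen.

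Between the untreated libraries the members' median absolute log2 difference (of CPM + 0.1) was 1.59, against 0.881 over genes at 1 to 30 CPM. Those genes were not matched to the members in level. By group the difference was 1.94 in receptor, 2.41 in state and 0.310 in cytotoxic genes, 5 of which lacked counts in both. Between pairs of curcumol libraries it was 0.605 to 1.18 over the members, against 0.380 to 0.417 over those genes. Untreated library 1 lacked counts for 13 members and library 2 for 10. Of the 30 members 6 lacked them in both, 11 in 1 and 13 in neither. The curcumol libraries lacked none.

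Absence from the untreated libraries also depended on level. All 6 members at 10 to 30 CPM with curcumol (Cd3g, Cd2, Lck, Il7r, Nkg7 and Gzma) had counts in both untreated libraries, where 1.68% and 0.871% of all genes at that level lacked them in library 1 and 2. At 3 to 10 CPM, 3 of 12 members were absent from library 1 and 3 of 12 from library 2, where 16.0% and 14.3% of genes were. Of the 10 members at 1 to 3 CPM, 8 and 5 were absent, where 45.4% and 37.6% of genes were. Gzmb was the only member at 3 to 10 CPM absent from both, as 5.48% of genes at that level were. The part of library content in these absences was not tested.

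**Figure D4:**
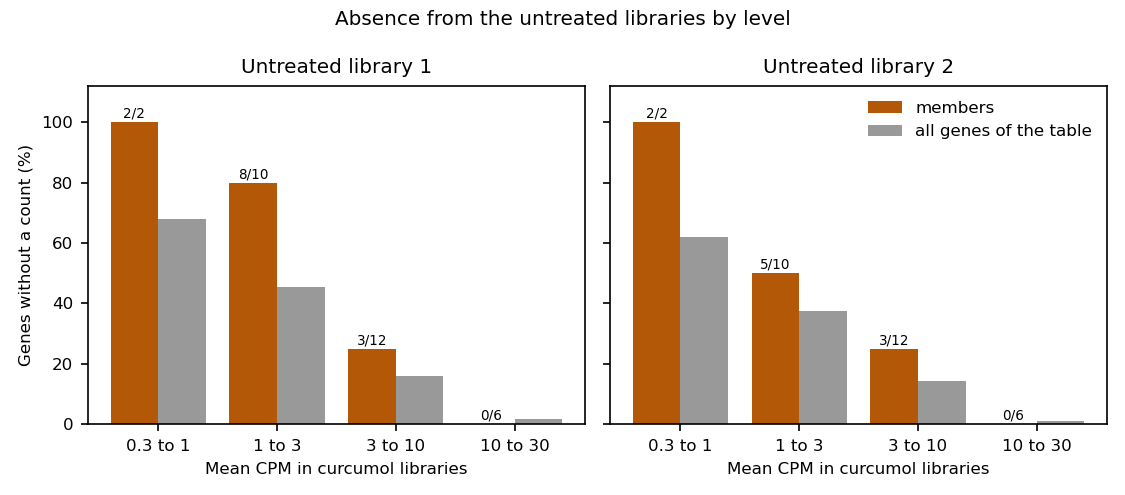
Percent of genes without a count in untreated library 1 (left) and 2 (right), for members (orange, with counts over bars) and all genes of the table (grey), by mean CPM in the curcumol libraries. Absence falls with level in both, and no member at 10 to 30 CPM is absent.

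Other genes of the same pathways were counted from 3 lists of 30. Of 30 further receptor signalling genes none rose or fell, and the libraries lay higher with curcumol for 6 (20%) and lower for 2, where 36.6% and 9.31% of all tested genes did. The most abundant of this list, Vav1, Lcp2, Bcl10 and Nfatc1, are also expressed by myeloid cells, and Vav1 averaged 241 ± 9.28 CPM with curcumol and 226 ± 30.2 CPM without. Of the state and checkpoint list 27 were used here and 22 tested, and 1 fell. Cd69, an early activation marker of lymphocytes that myeloid cells also express, stood at 22.4, 21.8 and 20.1 CPM with curcumol, against 62.3 and 63.8 CPM in untreated libraries (-1.74 ± 0.19, adjusted p = 0.0464, edgeR). Its libraries did not overlap, and its direction was opposite to that of most members. The call held in 7 of 12 alternatives, and the change was -1.80 to -1.56 in all 12. It ended with total counts (adjusted p = 0.0560), with a replicate block (0.178) and without curcumol replicate 1 (0.0954), 2 (0.104) or 3 (0.106). Abundant genes of that list included the checkpoint receptor Havcr2 and S1pr1, the receptor by which lymphocytes leave tissue, at 118 ± 30.0 CPM with curcumol and 114 ± 14.7 CPM without. Of the NK and cytotoxic list 29 were used here and 24 tested, and none passed. Libraries lay higher with curcumol for 14 of the 22 tested state genes (63.6%) and 10 of the 24 tested cytotoxic genes (41.7%), and lower for 1 in each list. Its most abundant gene, Tyrobp, a signalling adaptor that NK and myeloid cells share, averaged 1828 ± 343 CPM with curcumol and 1602 ± 38.5 CPM without. Cd244a, the adaptor Hcst and the chemokine Ccl5 followed, with Ccl5 at 33.4 ± 15.9 CPM with curcumol and 16.9 ± 1.88 CPM without. At an unadjusted p under 0.05, 3 of 30 receptor genes (10%), 8 of 22 state genes (36.4%) and 7 of 24 cytotoxic genes (29.2%) were higher, where 18.1% of all tested genes were, and 1, Cd69, was lower, where 6.51% were. All the higher cytotoxic genes, and all the higher state genes but Cxcr3 and Cxcr6, had at most 1 count over both untreated libraries. They passed the filter on low counts through the curcumol libraries alone, so these shares support nothing by themselves. In these lists 21 genes lacked counts in both untreated libraries. Of all genes at 0.3 to 1, 1 to 3 and 3 to 10 CPM with curcumol, 48.5%, 23.5% and 5.48% did. Among the 21 were Foxp3, the factor of regulatory T cells, Fasl, Klrc1, Klrg1 and Ubash3a, picked as examples after their values were seen. Some of the 21 had few counts with curcumol too, such as Il17a (0, 0 and 5) and Il4 (0, 0 and 2).

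Markers of several other cell types were also higher in sum in all curcumol libraries. Of all tested genes, 36.6% lay higher in every curcumol library than in both untreated libraries, and 0.207% passed the threshold. Neutrophil markers summed to 1629 to 3479 CPM with curcumol, against 324 and 370 CPM, with 9 of 10 genes not overlapping and 2, Camp and Ngp, past the threshold. The most abundant were S100a8 and S100a9. Fibroblast markers summed to 135 to 357 CPM, against 34.3 and 27.2 CPM, with 6 of 8 not overlapping and 2, Dcn and Lum, past the threshold. B cell markers (98.1 to 140.3 CPM, against 62.6 and 49.5 CPM), endothelial markers (61.6 to 121.6 CPM, against 25.3 and 30.3 CPM) and cardiomyocyte markers (93.8 to 120.6 CPM, against 26.2 and 52.3 CPM) were higher in sum in all curcumol libraries. Of their tested genes 8 of 8, 7 of 8 and 6 of 7 did not overlap, and none passed the threshold. The untested cardiomyocyte gene Ryr2 did not overlap either. Dendritic cell markers (40.8 to 68.0 CPM, against 47.0 and 41.0 CPM) and erythroid and platelet markers (974 to 1232 CPM, against 968 and 1073 CPM) overlapped. Mast cell and basophil markers summed to 1.26 to 13.9 CPM, against 0.139 and 0 CPM. Markers at 0 in both untreated libraries were Pax5 and Blk (B cell), Ly6g and Camp (neutrophil), Cdh5, Tie1, Egfl7 and Esam (endothelial), Pdgfra and Lum (fibroblast), Ttn and Ryr2 (cardiomyocyte), Clec9a and Siglech (dendritic), Alas2 (erythroid), and Kit, Mcpt4, Tpsb2, Fcer1a and Cma1 (mast cell). The most abundant B cell marker, Cd79b, averaged 41.1 ± 5.16 CPM with curcumol and 29.2 ± 1.84 CPM without, and the next, Cd79a, 29.4 ± 7.89 CPM with curcumol and 7.41 ± 3.62 CPM without. The most abundant endothelial marker, Fabp4, averaged 52.6 ± 18.5 CPM with curcumol and 24.3 ± 3.45 CPM without, and the next, Pecam1, 10.5 ± 5.08 CPM with curcumol and 0.518 ± 0.0190 CPM without (SD, n = 3 and 2). Their part in the lymphocyte values was not tested.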

How the data were processed

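The authors deposited whole-number counts per gene for 5 libraries, without normalization; fastp, HISAT2, HTSeq and Bowtie2 are named, unversioned, per the submitters' processing notes. Neither genome build nor annotation is given in the sources used here. Per the labels' protocols the library kit was VAHTS Universal, while the series' design text names a stranded TruSeq kit, so strand is not settled. Columns were tied to samples by title. The members, lists and tests were chosen with earlier results of these data known. By rule all members are named, and of other pathway lists genes past the threshold and the 4 most abundant, of which 1 is not reported here; of marker lists, those at 0 in a group and some of the 2 most abundant.

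CPM are counts over the library total. Curcumol was tested against no treatment in edgeR 4.0.16 (R 4.3.3): TMM factors, filterByExpr with a minimum count of 10, a two-sided quasi-likelihood F-test of treatment without covariates (3 residual degrees of freedom), Benjamini-Hochberg adjustment over 14508 genes, threshold 0.05, tested on simulated data. SEs and intervals come from the fold change and F statistic. An exact permutation of 3 against 2 samples cannot go below p = 0.1 and was not used. Replicate libraries all differed beyond sampling noise (chi-square per gene 76.8 to 124). Transcript lengths are from GENCODE M21 (longest coding transcript, found for 30 members), and promoters from RefSeq GRCm38.p6 (24 members). Poisson intervals and floors cover counting error only. Alternatives were DESeq2 1.42.0, limma-voom (limma 3.58.1), other factors and filters, a replicate block and leaving out each sample; for summed CPM, TMM-scaled library sizes or leaving out the top member.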

Additional observations from a re-analysis of the deposited data

How the results depend on the processing

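The number of members past an adjusted p of 0.05 was 0 in edgeR, also with RLE factors, total counts and a replicate block. It was 5 with DESeq2, 4 with limma-voom, 2 without a filter on low counts and 1 with a CPM of at least 1 in 2 samples. All were higher with curcumol, and Gzmb was in each. The genes called there had at most 1 count over both untreated libraries and could only be higher, so this agreement supports nothing. Leaving out a curcumol library gave 0 (27 or 28 members tested; 4 or 5 at an unadjusted p under 0.05). Without untreated replicate 1 it was 10 and without replicate 2 14, so the range was 0 to 14; the lone untreated library is then assumed to vary like the others. All genes past the threshold numbered 30, and 2397 with DESeq2, 10 with total counts, 416 without a filter, 98 with the CPM filter, 1661 with limma-voom, 45 with the replicate block and 0 to 3531 leaving out a library. Other pathway genes numbered 1, and 17, 0, 7, 1, 15 and 0 in that order, and 0 to 31 leaving out a library.

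The members' median log2 change of 1.04 was 3.45 with limma-voom, 3.31 with the replicate block and 0.69 to 1.70 leaving out a library; with total counts it was 1.21, while the median of all tested genes was 0.34, against 0.15 with TMM factors. The state group's log2 ratio of summed means, 0.11, was 1.26 without Il7r, -0.09 with TMM-scaled sizes and -0.28 to 0.34 leaving out a library; the cytotoxic ratio of 1.49 was 0.94 to 2.4 leaving out a library and the receptor ratio of 0.54 was 0.28 to 0.82. Over 12 alternatives, Cd247, Cd28, Cd3g, Cd5, Cd8a, Klrb1c and Zap70 changed sign in at least 1; Cd247 was 10.53 and past the threshold without untreated replicate 1, and -1.41 and past it without replicate 2. The cause was not tested. Whether replicate numbers pair samples is not settled: deviations of same-numbered libraries correlated at 0.036 and -0.008, with only 2 pairs. The deviations of the 2 untreated libraries mirror each other, so these correlations cannot decide it. Genes at a few CPM are limited by absences in the untreated libraries.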
